A study of Dichomitus squalens with 16 samples.

Results

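The aldo/keto reductases of the white-rot fungus Dichomitus squalens were followed through their transcripts in mycelium grown on 4 plant materials. They are the genes whose deposited protein database description starts with "aldo/keto reductase" or "aldo-keto reductase", spelled with either mark and in any case. The rule found 49 of the 11410 genes that had reads, and it used no measured value. The same strain, LYAD-421 SS1, was used in all groups. After a preculture of 4 days in 75 ml at 28 °C, 4 ml of homogenized mycelium went into 100 ml of LN-AS medium of pH 4.5, which is low in nitrogen and contains asparagine and succinate, and which held 6.8 mM glycerol in every group. Each culture also held 1 g of plant material. The wood groups had spruce sawdust (a softwood) or aspen sawdust (a hardwood), and the non-woody groups had powdered wheat bran or cotton seed hulls. Mycelium was taken on day 16 or day 9, which gives 8 groups with 2 libraries each, 16 in all. A non-woody substrate is thus another plant material, and no group without plant material was analysed here.

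Aldo/keto reductases are mostly monomeric enzymes that use NADPH to reduce an aldehyde or ketone group to an alcohol, and many also run in the reverse direction. In fungi the family includes xylose reductase, which turns the wood sugar xylose into xylitol at the entry to pentose catabolism. It also includes aryl-alcohol dehydrogenases, which reduce aromatic aldehydes such as those released from lignin by white-rot fungi. Other family members reduce sugars, ketoacyl compounds or toxic aldehydes, so the family name alone does not give a gene's substrate.

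RNA was sequenced as mRNA libraries with 8448654 ± 242095 uniquely assigned reads (mean and SD, n = 16), the shallowest at 94.5% and the deepest at 104.7% of the mean. Levels are given as RPKM, reads scaled to the length of the gene model and to the total reads of its library. Fold changes and tests come from the read counts, with edgeR's quasi-likelihood test and Benjamini-Hochberg adjustment over all 10584 genes tested, and a gene passed at an adjusted p under 0.05. Errors of fold changes are standard errors, and errors of levels are SD over the 2 libraries of a group. Fold changes are scaled by TMM (a trimmed mean of the fold changes of all genes, with factors of 0.702 to 1.22), whereas RPKM is scaled by total reads, so the 2 scales can differ for the same gene. With total reads alone as the scale, the median log2 fold change of all genes was 0.51 for wood on day 16 and 0.31 for wood on day 9, against 0.03 on both days with TMM. The replicates were not stated to be separate cultures, so the p-values may measure technical spread. The comparisons of wood with non-woody substrates cover these 4 materials and not wood in general. The replicates differed most in the wood groups of day 9, where chi-square divided by its degrees of freedom was 27.1 on spruce and 29 on aspen, against 1.66 to 11.7 in the other groups. Since each library is RNA of a whole mycelium, fewer cells of one state and less RNA per cell cannot be told apart. The labels do not state whether strand was kept, so reads of overlapping genes cannot be told apart either.

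The deposited annotation gave a specific enzyme name to 11 of the 49 genes. DICSQDRAFT_107106 and DICSQDRAFT_133456 were annotated as alcohol dehydrogenase (NADP+), which reduces a broad range of aldehydes to alcohols. The 5 genes DICSQDRAFT_109296, DICSQDRAFT_49120, DICSQDRAFT_111353, DICSQDRAFT_148820 and DICSQDRAFT_150697 were annotated as aflatoxin B1 aldehyde reductase, an enzyme known from aflatoxin metabolism that reduces dialdehydes. Pyridoxine 4-dehydrogenase, which interconverts the vitamin B6 forms pyridoxal and pyridoxine, was the annotation of DICSQDRAFT_48558, DICSQDRAFT_168113 and DICSQDRAFT_172552. DICSQDRAFT_160801 was annotated as D-arabinose 1-dehydrogenase, which in Saccharomyces cerevisiae takes part in the synthesis of erythroascorbate. The other 38 genes carried only the general class of oxidoreductases acting on alcohol groups with NAD or NADP. No specific substrate is therefore given below for most of the genes that changed.

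Transcripts of the family were detected broadly but at very unequal levels. Reads were present in every library for 46 of the 49 genes. By mean RPKM over the 16 libraries 3 genes were above 100, 19 between 10 and 100, 23 between 1 and 10, and 4 under 1. The 3 most abundant, DICSQDRAFT_107106, DICSQDRAFT_173225 and DICSQDRAFT_107317, had means of 332.9, 309.5 and 179 RPKM and made up 52.5% of the family's summed RPKM. Together the 49 genes took 0.261 ± 0.0108% of all reads on spruce, 0.207 ± 0.0099% on aspen, 0.145 ± 0.0044% with wheat bran and 0.135 ± 0.000423% with cotton seed hulls on day 16 (SD, n = 2 each). On day 9 the shares were 0.202 ± 0.0229% on spruce, 0.19 ± 0.0476% on aspen, 0.15 ± 0.0032% with wheat bran and 0.154 ± 0.00475% with cotton seed hulls. The share was thus highest on spruce on day 16, and on day 9 the aspen libraries varied by more than the distance to the other groups.

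Of the 44 genes tested, 36 (81.8%) had their highest group mean RPKM on wood, beside 77.4% of all genes tested. The highest group mean fell on day 16 for 26 of the 44 (59.1%), beside 48.1% of all genes, and the lowest lay on cotton seed hulls for 29 (65.9%), beside 63.8%. The family was therefore near the background in where its genes peaked by substrate. The filter on low counts removed 5 genes, which are described by level alone. They were DICSQDRAFT_175775, DICSQDRAFT_172438, DICSQDRAFT_172552, DICSQDRAFT_125902 and DICSQDRAFT_175133, with mean RPKM of 1.35, 0.823, 0.69, 0.472 and 0.429. DICSQDRAFT_172552, DICSQDRAFT_125902 and DICSQDRAFT_175133 were the 3 genes with 0 reads in at least 1 library.

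**Figure D1:**
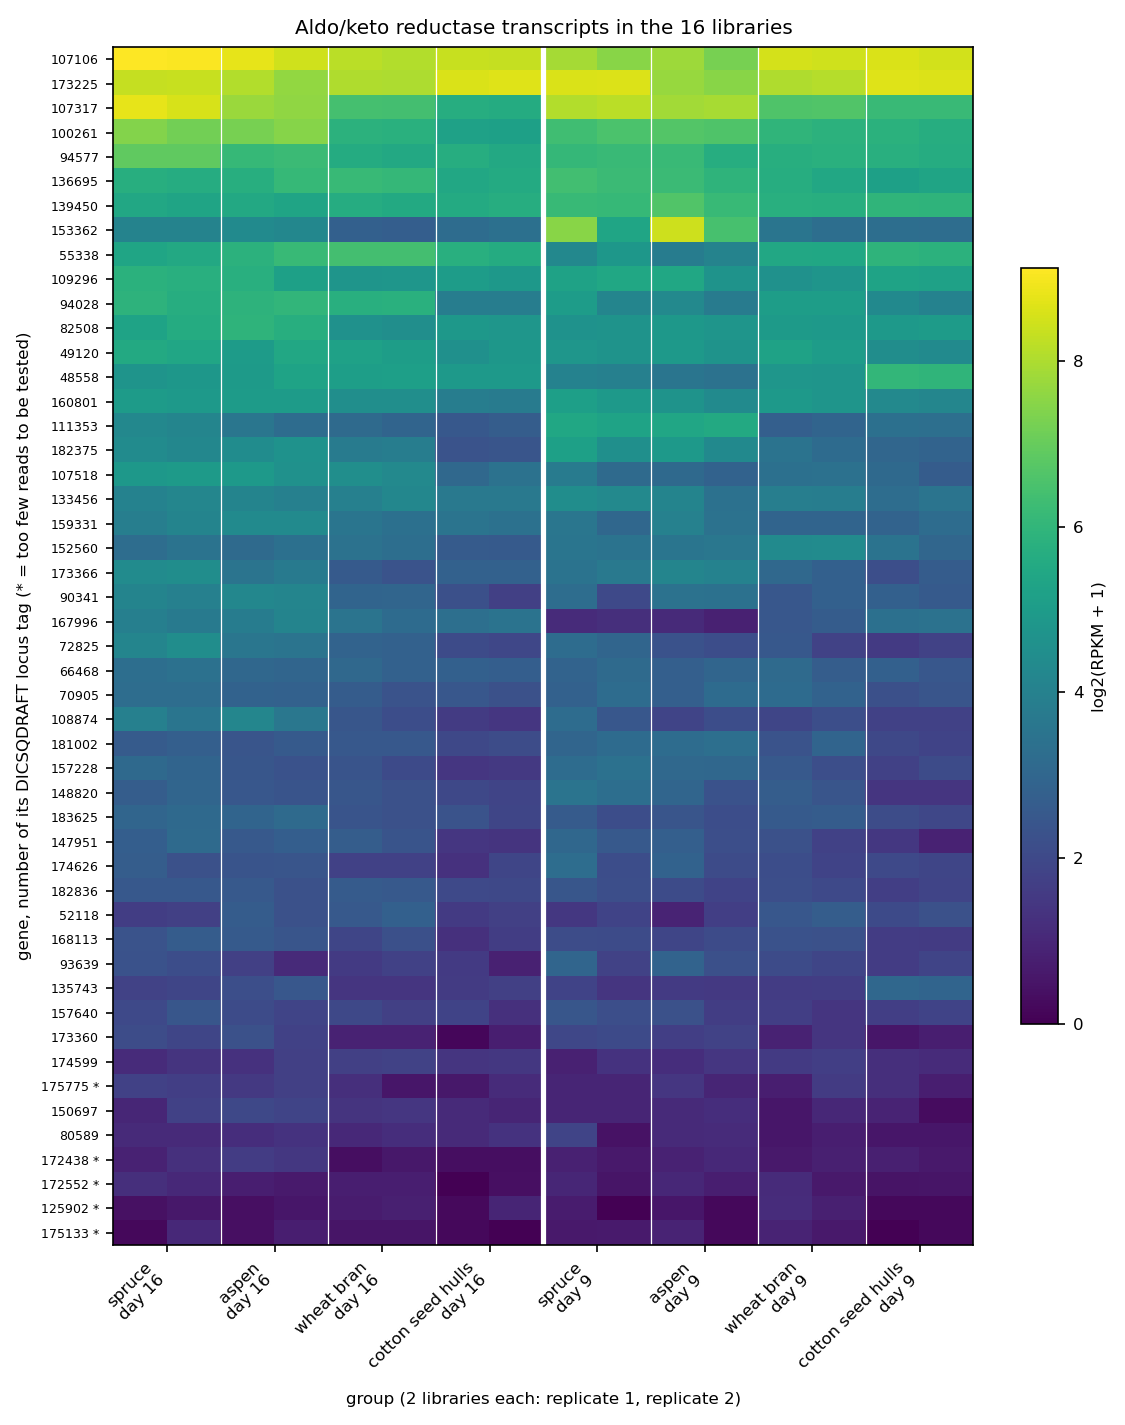
Heat map of log2(RPKM + 1) for the 49 aldo/keto reductases (rows, by falling mean RPKM, named by the number of the locus tag) in the 16 libraries (columns, 2 per group, day 16 left and day 9 right). The 3 genes at the top are bright in every library, and the 5 genes with an asterisk had too few reads to be tested; DICSQDRAFT_153362 stands out in the wood libraries of day 9.

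The most abundant gene, DICSQDRAFT_107106, annotated as alcohol dehydrogenase (NADP+), was low on wood on day 9 and high on spruce on day 16. DICSQDRAFT_107106 had RPKM of 555 and 529 with spruce, 441 and 347 with aspen, 288 and 265 with wheat bran and 327 and 321 with cotton seed hulls on day 16. On day 9 DICSQDRAFT_107106 had 236 and 178 with spruce, 218 and 152 with aspen, 372 and 353 with wheat bran and 384 and 359 with cotton seed hulls. On day 9 all 4 wood libraries lay below all 4 non-woody libraries, a 2.27-fold lower level on wood (log2 fold change of -1.18 ± 0.10, adjusted p = 7.12e-08). It was higher on day 16 than on day 9 on spruce (log2 fold change of 1.37 ± 0.15, adjusted p = 2.11e-06) and on aspen (log2 fold change of 0.95 ± 0.15, adjusted p = 4.68e-05), while the difference between wood and non-woody substrates on day 16 did not pass (log2 fold change of 0.14 ± 0.10, adjusted p = 0.248).

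DICSQDRAFT_173225 was about as abundant but was lower on wood on average on both days. DICSQDRAFT_173225 had RPKM of 319.6 and 326 with spruce, 266 and 201 with aspen, 263 and 257 with wheat bran and 386 and 411 with cotton seed hulls on day 16. On day 9 DICSQDRAFT_173225 had 388 and 400.0 with spruce, 209.6 and 181 with aspen, 263 and 276 with wheat bran and 409 and 395 with cotton seed hulls. The cotton seed hull libraries were among the highest on both days, and on day 9 the spruce libraries were as high, so that the wood and non-woody ranges overlapped. Wood was lower than the non-woody substrates on day 16 (log2 fold change of -0.71 ± 0.07, adjusted p = 2.13e-07) and on day 9 (log2 fold change of -0.52 ± 0.07, adjusted p = 4.9e-06). Scaled by total reads these log2 fold changes were -0.23 on day 16 and -0.25 on day 9. On day 9 the gene was higher on spruce than on aspen (log2 fold change of 0.80 ± 0.10, adjusted p = 4.55e-05). Wheat bran was lower than cotton seed hulls on day 16 (log2 fold change of -1.09 ± 0.10, adjusted p = 4.65e-07), and -0.62 with total reads as the scale.

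DICSQDRAFT_107317 was an abundant gene that was higher on wood. DICSQDRAFT_107317 had RPKM of 441 and 381 with spruce, 212 and 193 with aspen, 84.4 and 83.8 with wheat bran and 50 and 48.2 with cotton seed hulls on day 16. On day 9 DICSQDRAFT_107317 had 267 and 287 with spruce, 232 and 241 with aspen, 97.6 and 99.6 with wheat bran and 72.1 and 71.3 with cotton seed hulls. Every wood library was above every non-woody library on both days, by 3.21-fold on day 16 (log2 fold change of 1.68 ± 0.07, adjusted p = 1.4e-12) and 2.52-fold on day 9 (log2 fold change of 1.33 ± 0.07, adjusted p = 1e-11). Spruce was above aspen on day 16 (log2 fold change of 0.94 ± 0.09, adjusted p = 1.98e-06), and on day 9 the difference between them was 0.01 ± 0.09 (adjusted p = 0.952).

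DICSQDRAFT_100261 was also higher on wood on both days. DICSQDRAFT_100261 had RPKM of 172 and 143 with spruce, 151 and 174 with aspen, 57.6 and 54.0 with wheat bran and 35.9 and 35.4 with cotton seed hulls on day 16. On day 9 DICSQDRAFT_100261 had 78.5 and 92.3 with spruce, 103 and 95.6 with aspen, 62.1 and 57.2 with wheat bran and 55.9 and 49.9 with cotton seed hulls. The wood libraries lay above the non-woody ones without overlap on both days. The log2 fold change was 1.36 ± 0.08 on day 16 (adjusted p = 2.54e-10) and 0.44 ± 0.08 on day 9 (adjusted p = 0.000106), or 0.71 on day 9 with total reads as the scale. It rose between the days on spruce (log2 fold change of 0.87 ± 0.11, adjusted p = 5.8e-06) and aspen (log2 fold change of 0.58 ± 0.11, adjusted p = 0.000231).

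DICSQDRAFT_94577, whose best KEGG match was Saccharomyces cerevisiae YOR120W, was highest on spruce on day 16. DICSQDRAFT_94577 had RPKM of 118 and 117 with spruce, 68.0 and 73.1 with aspen, 48.4 and 44 with wheat bran and 50.8 and 44 with cotton seed hulls on day 16. On day 9 DICSQDRAFT_94577 had 66.6 and 71.3 with spruce, 72.0 and 50.3 with aspen, 51.6 and 54.0 with wheat bran and 53.4 and 48.6 with cotton seed hulls. The 2 spruce libraries of day 16 were above all others. The gene was higher on spruce than on aspen on day 16 (log2 fold change of 0.65 ± 0.12, adjusted p = 0.00081) and higher on day 16 than on day 9 on spruce (log2 fold change of 0.76 ± 0.12, adjusted p = 5.46e-05). The difference between wood and non-woody substrates passed on day 16 (log2 fold change of 0.48 ± 0.09, adjusted p = 0.000148) and not on day 9 (log2 fold change of 0.05 ± 0.09, adjusted p = 0.653). Scaled by total reads it was 0.96 on day 16.

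DICSQDRAFT_136695 and DICSQDRAFT_139450 had similar mean levels, 56.2 and 55.6 RPKM. DICSQDRAFT_136695 had RPKM of 52.1 and 49.5 with spruce, 51.4 and 68.1 with aspen, 69.0 and 65.8 with wheat bran and 43.8 and 46.1 with cotton seed hulls on day 16. On day 9 DICSQDRAFT_136695 had 80.6 and 73.6 with spruce, 72.7 and 59.3 with aspen, 50.6 and 43.4 with wheat bran and 34.9 and 38.9 with cotton seed hulls. The wood libraries of day 9 were above the non-woody ones of that day (log2 fold change of 0.50 ± 0.09, adjusted p = 7.21e-05), and 0.78 with total reads as the scale, whereas on day 16 the ranges overlapped. On day 16 wood was lower by TMM scaling (log2 fold change of -0.48 ± 0.09, adjusted p = 0.000155), but the log2 fold change was 0.00 with an adjusted p of 0.993 when total reads were the scale. DICSQDRAFT_139450 had RPKM of 43.3 and 38.7 with spruce, 44 and 38.9 with aspen, 48.8 and 46.0 with wheat bran and 47.0 and 50.1 with cotton seed hulls on day 16. On day 9 DICSQDRAFT_139450 had 69.2 and 68.8 with spruce, 100.1 and 68.9 with aspen, 53.1 and 51.9 with wheat bran and 60.8 and 60 with cotton seed hulls. On both woods the libraries of day 16 were below those of day 9 (spruce log2 fold change of -0.76 ± 0.12, adjusted p = 4.73e-05; aspen log2 fold change of -1.16 ± 0.12, adjusted p = 2.57e-07). Wood was lower than non-woody substrates on day 16 (log2 fold change of -0.70 ± 0.08, adjusted p = 1.94e-06), and -0.22 with total reads as the scale.

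DICSQDRAFT_153362 was highest on wood on day 9, with replicates far apart. DICSQDRAFT_153362 had RPKM of 16.0 and 15.7 with spruce, 19.4 and 17.7 with aspen, 6.02 and 5.58 with wheat bran and 8.35 and 9.35 with cotton seed hulls on day 16. On day 9 DICSQDRAFT_153362 had 178 and 40.4 with spruce, 340.2 and 87.2 with aspen, 10.7 and 8.85 with wheat bran and 8.82 and 8.67 with cotton seed hulls. All 4 wood libraries of day 9 were above the other 12 libraries, but replicate 1 was far above replicate 2 on each wood. The gene was 13.5-fold higher on wood on day 9 (log2 fold change of 3.76 ± 0.57, adjusted p = 0.000312). Without replicate 1 of both woods of day 9 the log2 fold change was 2.44, an alternative chosen after the data were seen. That fit leaves a lone library on each wood and so cannot measure the spread between their replicates. On day 16 the wood libraries were again above the non-woody ones, but the test did not pass (log2 fold change of 0.77 ± 0.61, adjusted p = 0.308).

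**Figure D2:**
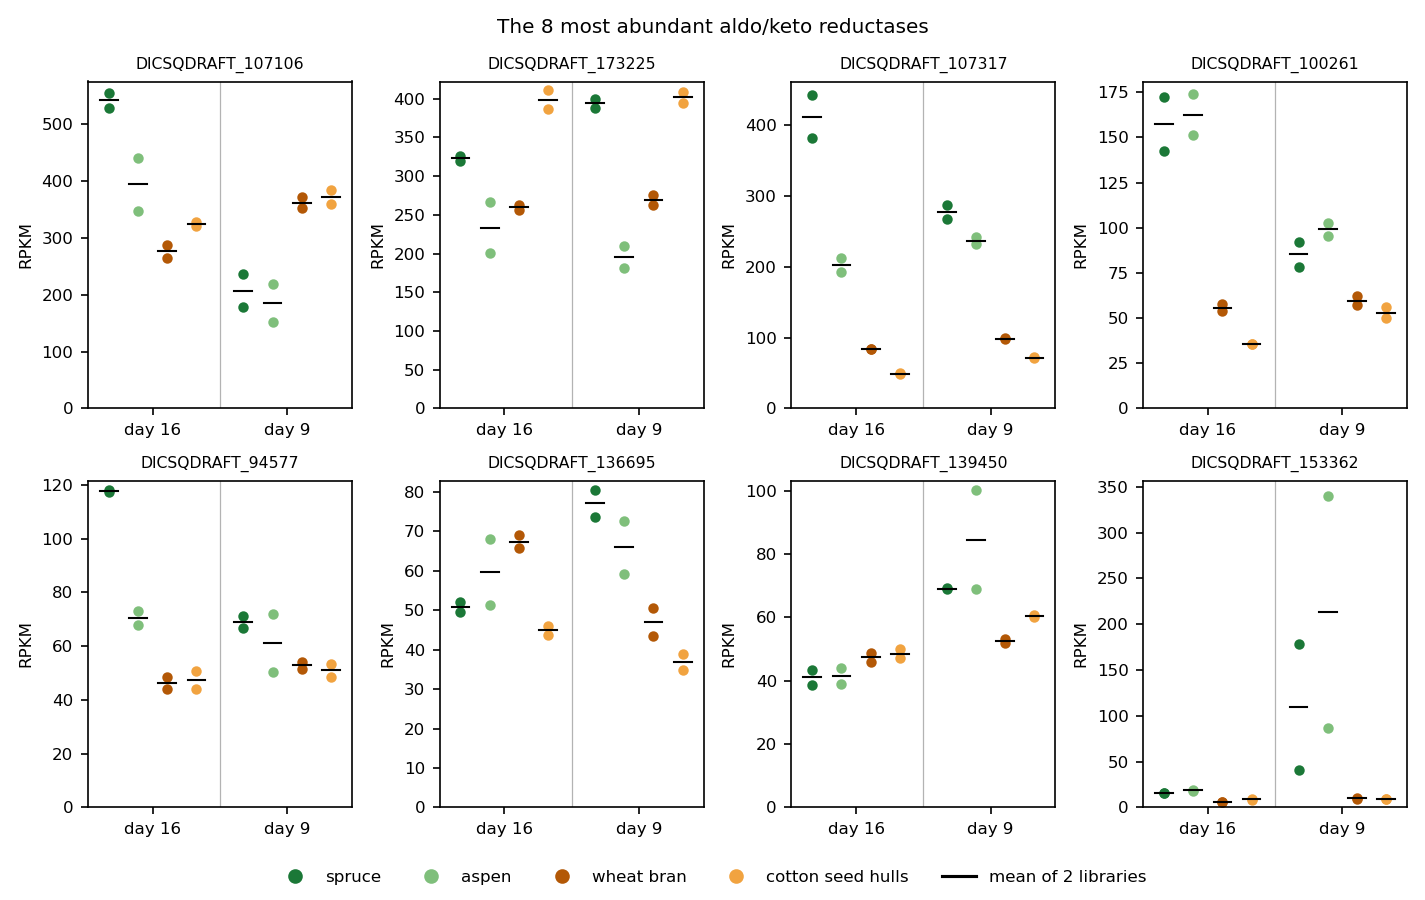
RPKM of the 8 most abundant aldo/keto reductases (y axis, linear from 0) in each library (points) with the mean of the 2 libraries of a group (bars), day 16 left and day 9 right. DICSQDRAFT_107317 and DICSQDRAFT_100261 are higher on spruce and aspen than on wheat bran and cotton seed hulls on both days, and DICSQDRAFT_153362 is high on the woods on day 9, with its replicates far apart.

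On day 9 the family split between genes higher and genes lower on wood. Of the 44 tested genes 25 passed (56.8%), beside 71.6% of all genes, with 14 higher on wood (beside 37.4% of all genes) and 11 lower (beside 34.2%). The share was below that of all genes, a difference that was not tested. The median log2 fold change of the 44 was 0.18, beside 0.03 for all genes. Scaled by total reads 24 were higher and 8 lower, beside 5381 and 2455 of all genes. The median on that scale was 0.46, beside 0.31 for all genes. Changes of at least 2-fold were called for 14 genes (31.8%), beside 27.9% of all genes.

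The largest increases on wood after DICSQDRAFT_153362 were in DICSQDRAFT_111353 and DICSQDRAFT_182375. DICSQDRAFT_111353, annotated as aflatoxin B1 aldehyde reductase, had RPKM of 42.2 and 37.8 with spruce and 40.8 and 45.7 with aspen, against 5.70 and 6.67 with wheat bran and 9.20 and 9.15 with cotton seed hulls. The groups did not overlap, and the gene was 4.56-fold higher on wood (log2 fold change of 2.19 ± 0.11, adjusted p = 1.25e-11). DICSQDRAFT_182375 had 35.3 and 22.1 with spruce and 29.3 and 19.2 with aspen, against 9.97 and 8.07 with wheat bran and 6.99 and 6.49 with cotton seed hulls. It was higher in all 4 wood libraries, by 2.79-fold (log2 fold change of 1.48 ± 0.16, adjusted p = 4.71e-07). The other 11 genes higher on wood were DICSQDRAFT_107317, DICSQDRAFT_100261, DICSQDRAFT_136695, DICSQDRAFT_159331, DICSQDRAFT_173366, DICSQDRAFT_72825, DICSQDRAFT_181002, DICSQDRAFT_157228, DICSQDRAFT_148820, DICSQDRAFT_147951 and DICSQDRAFT_173360, with log2 fold changes of 0.33 to 1.35.

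The largest decreases on wood were in DICSQDRAFT_167996, DICSQDRAFT_48558 and DICSQDRAFT_55338. RPKM of DICSQDRAFT_167996 were 1.19 and 1.35 with spruce and 1.12 and 0.806 with aspen, against 4.59 and 5.34 with wheat bran and 9.26 and 9.72 with cotton seed hulls. It was near 1 RPKM in every wood library and 7.42-fold lower than on the non-woody substrates (log2 fold change of -2.89 ± 0.20, adjusted p = 1.14e-09). DICSQDRAFT_48558, annotated as pyridoxine 4-dehydrogenase, had 15.6 and 14.7 with spruce and 10.8 and 9.76 with aspen, against 26.6 and 26.0 with wheat bran and 64.2 and 62.2 with cotton seed hulls. The cotton seed hull libraries were highest and the wood libraries lowest, without overlap (log2 fold change of -1.98 ± 0.08, adjusted p = 1.21e-12). DICSQDRAFT_55338 had 18.3 and 27.2 with spruce and 13.1 and 15.7 with aspen, against 43.3 and 42.5 with wheat bran and 60.6 and 57.0 with cotton seed hulls, again with no overlap (log2 fold change of -1.74 ± 0.12, adjusted p = 7.46e-10). The other 8 genes lower on wood were DICSQDRAFT_107106, DICSQDRAFT_173225, DICSQDRAFT_94028, DICSQDRAFT_82508, DICSQDRAFT_49120, DICSQDRAFT_152560, DICSQDRAFT_52118 and DICSQDRAFT_135743, with log2 fold changes of -0.28 to -1.44. Of these, DICSQDRAFT_94028 (-0.29), DICSQDRAFT_152560 (-0.28) and DICSQDRAFT_49120 (0.00) did not pass when total reads were the scale.

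On day 16 more members were higher on wood than lower. Again 25 of 44 passed (56.8%), beside 59.7% of all genes, but 18 were higher (40.9%, beside 29.7% of all genes) and 7 lower (15.9%, beside 30.0%). The median log2 fold change was 0.30, beside 0.03 for all genes. With total reads as the scale 31 were higher and 3 lower, beside 7036 and 1137 of all genes. The medians on that scale were 0.78 for the family and 0.51 for all genes. In RPKM 23 members had all 4 wood libraries above all 4 non-woody ones (52.3%, beside 43.1% of all genes), and 1 had them all below (2.27%, beside 6.59%).

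Beside DICSQDRAFT_107317, the largest increases on wood at levels of at least 5 RPKM were in DICSQDRAFT_108874 and DICSQDRAFT_90341. DICSQDRAFT_108874 had 14.7 and 10.8 with spruce and 17.3 and 11.2 with aspen, against 4.47 and 3.48 with wheat bran and 1.97 and 1.75 with cotton seed hulls. The wood libraries were 3.54-fold higher without overlap (log2 fold change of 1.82 ± 0.22, adjusted p = 2.08e-06). DICSQDRAFT_90341 had 16.2 and 14.8 with spruce and 17.8 and 16.6 with aspen, against 6.75 and 6.82 with wheat bran and 3.67 and 2.35 with cotton seed hulls, also without overlap (log2 fold change of 1.37 ± 0.22, adjusted p = 0.000113). Neither gene passed on day 9. The other 15 genes higher on wood were DICSQDRAFT_100261, DICSQDRAFT_94577, DICSQDRAFT_94028, DICSQDRAFT_82508, DICSQDRAFT_160801, DICSQDRAFT_111353, DICSQDRAFT_182375, DICSQDRAFT_107518, DICSQDRAFT_173366, DICSQDRAFT_72825, DICSQDRAFT_157228, DICSQDRAFT_183625, DICSQDRAFT_147951, DICSQDRAFT_168113 and DICSQDRAFT_173360, with log2 fold changes of 0.37 to 1.87, the last in DICSQDRAFT_173360 at under 4 RPKM in every library.

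The decreases on day 16 were smaller than on day 9. DICSQDRAFT_55338 had the largest among genes of at least 5 RPKM, with RPKM of 39.6 and 44.2 with spruce and 57.3 and 69.7 with aspen, against 83.8 and 83.0 with wheat bran and 52.5 and 48.3 with cotton seed hulls. The wheat bran libraries were highest, and the wood and cotton seed hull ranges overlapped (log2 fold change of -0.81 ± 0.10, adjusted p = 4.65e-06, and -0.33 with total reads as the scale). DICSQDRAFT_173225 and DICSQDRAFT_139450, described above, followed at -0.71 and -0.70. The other 4 genes lower on wood were DICSQDRAFT_136695, DICSQDRAFT_48558, DICSQDRAFT_52118 and DICSQDRAFT_174599, with log2 fold changes of -0.48 to -0.83, the last in DICSQDRAFT_174599 at under 3 RPKM. None of these 4 passed when total reads were the scale, where the log2 fold changes were 0.00 for DICSQDRAFT_136695, -0.08 for DICSQDRAFT_48558, -0.09 for DICSQDRAFT_52118 and -0.35 for DICSQDRAFT_174599.

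Set side by side, 9 genes were higher on wood on both days (20.5%, beside 18.6% of all genes) and 4 were lower on both (9.09%, beside 20.0%). The 9 were DICSQDRAFT_107317, DICSQDRAFT_100261, DICSQDRAFT_111353, DICSQDRAFT_182375, DICSQDRAFT_173366, DICSQDRAFT_72825, DICSQDRAFT_157228, DICSQDRAFT_147951 and DICSQDRAFT_173360, and the 4 were DICSQDRAFT_173225, DICSQDRAFT_55338, DICSQDRAFT_48558 and DICSQDRAFT_52118. Of these 4, DICSQDRAFT_48558 and DICSQDRAFT_52118 were lower on day 9 alone when total reads were the scale. DICSQDRAFT_94028 and DICSQDRAFT_82508 were higher on wood on day 16 but lower on day 9 (4.55%, beside 3.37% of all genes). For DICSQDRAFT_94028 the wheat bran libraries of day 16 lay within the range of the woods. On day 9 its cotton seed hull libraries lay within that of the woods. DICSQDRAFT_136695 was lower on wood on day 16 but higher on day 9 (2.27%, beside 4.67%). With total reads the day 9 call of DICSQDRAFT_94028 (-0.29, adjusted p = 0.15) and the day 16 call of DICSQDRAFT_136695 were lost, which leaves DICSQDRAFT_82508 with opposite calls on that scale. Another 7 genes were higher on wood on day 16 and passed in neither direction on day 9 (15.9%, beside 7.67% of all genes), and 2 were lower on day 16 in the same way (4.55%, beside 5.38%). On day 9 alone 4 passed as higher (9.09%, beside 14.1%) and 5 as lower (11.4%, beside 10.8%). Neither day's contrast passed for 10 genes (22.7%, beside 15.4%).

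**Figure D3:**
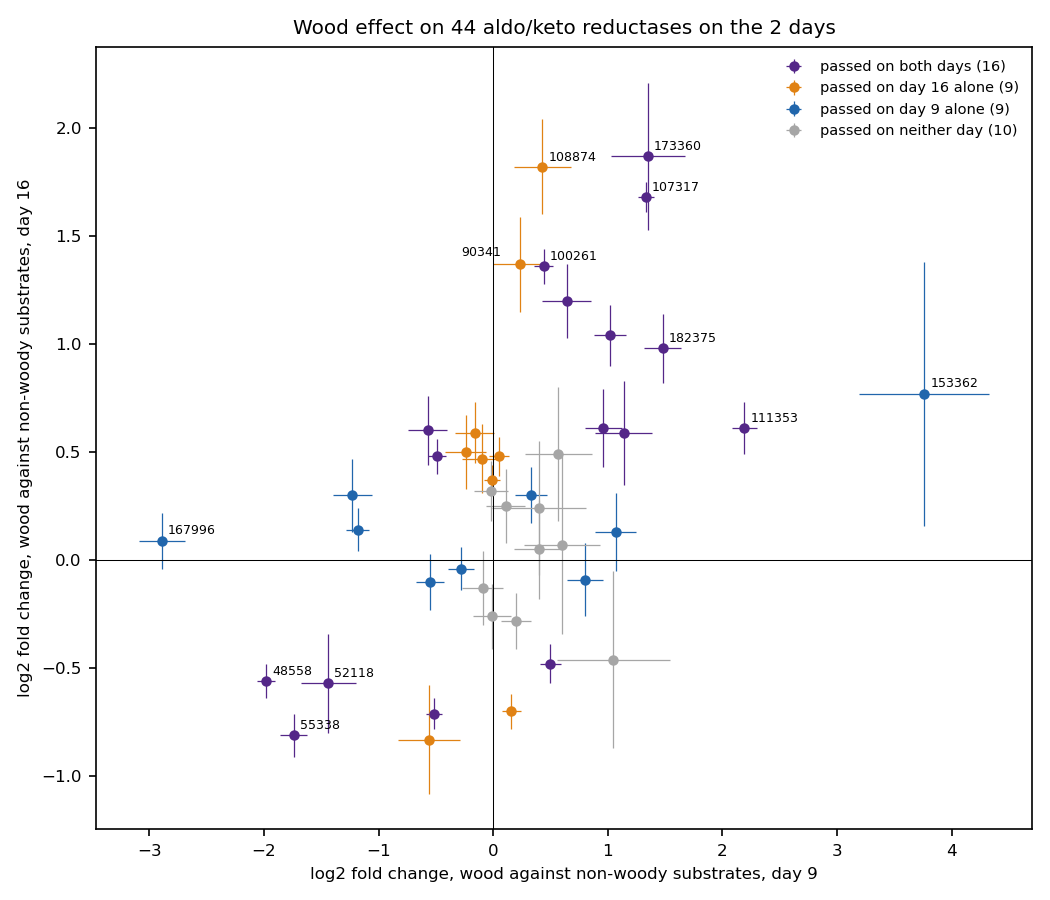
Log2 fold changes of wood against non-woody substrates for the 44 tested aldo/keto reductases on day 9 (x axis) and day 16 (y axis), with standard errors; colours show on which days a gene passed the test. The 9 genes higher on wood on both days lie at the upper right, and DICSQDRAFT_167996 and DICSQDRAFT_153362 lie far out on the day 9 axis.

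Spruce and aspen differed in fewer members. On day 16, 12 of 44 passed (27.3%, beside 23.5% of all genes), 7 higher and 5 lower on spruce, beside 11.5% and 12% of all genes. On day 9, 10 passed (22.7%, beside 21.4%), 4 higher and 6 lower on spruce (beside 8.26% and 13.1%). The latter became 9 higher and 1 lower with total reads as the scale, beside 2779 and 731 of all genes. The counts of 12 and 10 were thus near the background, and they rested on few libraries. Without spruce replicate 1, spruce replicate 2 or aspen replicate 2 the count on day 16 was 6, 7 and 6, and without aspen replicate 2 that on day 9 was 5. A fit of the 4 libraries of day 9 alone called 1.

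DICSQDRAFT_107317 was the largest called difference towards spruce on day 16, as given above. DICSQDRAFT_55338 was the largest towards aspen among genes of at least 5 RPKM, with 39.6 and 44.2 RPKM on spruce, against 57.3 and 69.7 on aspen. The ranges did not overlap (log2 fold change of -0.69 ± 0.15, adjusted p = 0.0032), but without aspen replicate 2 the adjusted p was 0.053. The other 6 genes higher on spruce were DICSQDRAFT_173225, DICSQDRAFT_94577, DICSQDRAFT_111353, DICSQDRAFT_173366, DICSQDRAFT_72825 and DICSQDRAFT_157228, with log2 fold changes of 0.38 to 0.77. The other 4 lower on spruce were DICSQDRAFT_82508, DICSQDRAFT_48558, DICSQDRAFT_52118 and DICSQDRAFT_135743, with -0.46 to -1.09.

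On day 9 the largest called differences among genes of at least 5 RPKM were less firm. DICSQDRAFT_72825 had 8.40 and 6.89 RPKM on spruce, against 3.86 and 3.42 on aspen (log2 fold change of 0.85 ± 0.26, adjusted p = 0.028). DICSQDRAFT_90341 had 8.66 and 3.05 on spruce, against 9.77 and 9.67 on aspen (log2 fold change of -0.94 ± 0.31, adjusted p = 0.0467). For DICSQDRAFT_90341 the log2 fold change was -0.39 without spruce replicate 2 (adjusted p = 0.212) and -1.88 without spruce replicate 1. Its call was also lost with total reads as the scale (-0.73, 0.0891), with the libraries of day 9 alone (-0.93, 0.333) and without aspen replicate 1 (-0.99, 0.0994) or replicate 2 (-0.90, 0.181). The call of DICSQDRAFT_72825 was lost without spruce replicate 1 (0.71, 0.146), aspen replicate 1 (0.89, 0.0733) or aspen replicate 2 (0.82, 0.132), with DESeq2 (0.83, 0.069) and with the libraries of day 9 alone (0.86, 0.124).

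Wheat bran and cotton seed hulls differed in 15 of 44 members on each day (34.1%), beside 31.4% of all genes on day 16 and 33.8% on day 9. On day 16, 6 were higher and 9 lower on wheat bran (beside 13% and 18.3% of all genes). These counts became 20 and 1 with total reads as the scale, beside 5848 and 625 of all genes. The median of all genes was 0.48 on that scale, against 0.01 with TMM. On day 9, 7 were higher and 8 lower (beside 15.2% and 18.5%). With total reads they were 14 and 6, beside 3345 and 933 of all genes. Leaving out any 1 of the 4 libraries of day 16 left 7 to 9 calls.

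DICSQDRAFT_94028 had the largest difference towards wheat bran on day 16, with 52.7 and 54.3 RPKM on wheat bran, against 13.5 and 13.7 on cotton seed hulls. The level on wheat bran lay within the range of the woods on that day, and the gene was 2.84-fold higher than on cotton seed hulls (log2 fold change of 1.5 ± 0.23, adjusted p = 0.000437). The other 5 higher on wheat bran were DICSQDRAFT_107317, DICSQDRAFT_182375, DICSQDRAFT_107518, DICSQDRAFT_147951 and DICSQDRAFT_52118, with log2 fold changes of 0.30 to 1.20. DICSQDRAFT_173225 was lower on wheat bran, as given above, and the other 8 lower were DICSQDRAFT_107106, DICSQDRAFT_94577, DICSQDRAFT_139450, DICSQDRAFT_109296, DICSQDRAFT_82508, DICSQDRAFT_173366, DICSQDRAFT_167996 and DICSQDRAFT_135743, with -0.50 to -0.91.

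On day 9 DICSQDRAFT_152560 had 19.5 and 20.1 RPKM on wheat bran, against 10.1 and 7.06 on cotton seed hulls. The wheat bran libraries were the highest of all 16 for this gene (log2 fold change of 0.97 ± 0.17, adjusted p = 0.000327). DICSQDRAFT_135743 had 2.06 and 2.19 on wheat bran, against 7.27 and 6.76 on cotton seed hulls. The cotton seed hull libraries of day 9 stood above the other 14, and the gene was 3.86-fold lower on wheat bran (log2 fold change of -1.95 ± 0.21, adjusted p = 3.01e-06). The other 6 genes higher on wheat bran were DICSQDRAFT_94028, DICSQDRAFT_49120, DICSQDRAFT_160801, DICSQDRAFT_181002, DICSQDRAFT_148820 and DICSQDRAFT_168113, with log2 fold changes of 0.37 to 1.31. The other 7 lower were DICSQDRAFT_173225, DICSQDRAFT_139450, DICSQDRAFT_55338, DICSQDRAFT_109296, DICSQDRAFT_48558, DICSQDRAFT_111353 and DICSQDRAFT_167996, with -0.43 to -1.5.

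Between the days more members passed on the woods than on the non-woody substrates, and most of these were higher on day 16. On spruce 24 of 44 passed (54.5%, beside 50.6% of all genes), 17 higher on day 16 (38.6%, beside 23.6%) and 7 lower (15.9%, beside 27.0%). On aspen 26 passed (59.1%, beside 63.6%), 17 higher (38.6%, beside 31.5%) and 9 lower (20.5%, beside 32.1%). The median log2 fold changes were 0.27 on spruce and 0.20 on aspen, beside -0.01 and 0.03 for all genes. Both woods had 13 members higher on day 16 (29.5%, beside 19.0% of all genes) and 3 lower (6.82%, beside 22.0%).

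On wheat bran 9 of 44 passed (20.5%, beside 17.3% of all genes), 7 higher and 2 lower on day 16 (beside 9.13% and 8.16%). On cotton seed hulls 11 passed (25.0%, beside 28.4%), 6 higher and 5 lower (beside 15.7% and 12.7%). The latter became 0 higher and 7 lower with total reads as the scale, beside 760 and 3024 of all genes. The median of all genes was -0.22 on that scale, against 0.03 with TMM. A fit of the 4 wheat bran libraries alone called 17, 10 higher and 7 lower. Leaving out any 1 library of the contrast left 3 to 5 calls for wheat bran and 3 to 6 for cotton seed hulls. One gene, DICSQDRAFT_159331, was not called on wheat bran (0.60 ± 0.20) but was higher on day 16 on the other 3 substrates, on cotton seed hulls not with total reads as the scale (0.44, adjusted p = 0.118). Only DICSQDRAFT_136695 was higher on day 16 on both non-woody substrates (2.27%, beside 5.56% of all genes), and its call on cotton seed hulls was lost with total reads (0.29, adjusted p = 0.102).

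DICSQDRAFT_167996 had the largest increase on both woods. DICSQDRAFT_167996 had RPKM of 14.2 and 12.5 with spruce, 13.2 and 16.3 with aspen, 10.5 and 8.08 with wheat bran and 9.14 and 10.1 with cotton seed hulls on day 16. On day 9 DICSQDRAFT_167996 had 1.19 and 1.35 with spruce, 1.12 and 0.806 with aspen, 4.59 and 5.34 with wheat bran and 9.26 and 9.72 with cotton seed hulls. On wood the day 9 libraries were all under 2 RPKM and the day 16 libraries all over 12. The gene was 10.3-fold higher on day 16 on spruce (log2 fold change of 3.36 ± 0.25, adjusted p = 1.51e-08) and 13.7-fold higher on aspen (log2 fold change of 3.78 ± 0.27, adjusted p = 3.04e-09). On wheat bran it was also higher (log2 fold change of 0.91 ± 0.20, adjusted p = 0.00495), and on cotton seed hulls it did not pass (log2 fold change of 0.27 ± 0.19, adjusted p = 0.304). The increase on wood exceeded that on the non-woody substrates by 2.98 ± 0.24 on the log2 scale (adjusted p = 3.39e-08).

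DICSQDRAFT_153362 had the largest decrease on both woods, -2.80 ± 0.76 on spruce (adjusted p = 0.0145) and -3.64 ± 0.77 on aspen (adjusted p = 0.00297). Without spruce replicate 1 of day 9 it was -1.37 with an adjusted p of 0.136, and the call was also lost, at about the same log2 fold change, without spruce replicate 1 (-2.82, adjusted p = 0.0733) or replicate 2 (-2.77, 0.0771) of day 16. Without replicate 1 of both woods of day 9 the values were -1.37 on spruce and -2.42 on aspen. DICSQDRAFT_111353 fell in the same direction. On day 16 DICSQDRAFT_111353 had RPKM of 18.3 and 16.7 with spruce, 11.1 and 8.24 with aspen, 7.90 and 6.68 with wheat bran and 4.66 and 5.52 with cotton seed hulls, and its day 9 values are given above. Its day 16 libraries were below those of day 9 on spruce (log2 fold change of -1.20 ± 0.14, adjusted p = 2.28e-06) and on aspen (log2 fold change of -2.30 ± 0.15, adjusted p = 1.11e-09).

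DICSQDRAFT_107518 had the largest called increase on wheat bran, and also rose on the woods. DICSQDRAFT_107518 had RPKM of 28.3 and 30.4 with spruce, 29.1 and 23.3 with aspen, 21.8 and 18.5 with wheat bran and 7.43 and 9.74 with cotton seed hulls on day 16. On day 9 DICSQDRAFT_107518 had 12.8 and 7.86 with spruce, 7.76 and 6.27 with aspen, 9.28 and 9.51 with wheat bran and 7.70 and 5.35 with cotton seed hulls. On day 16 the gene was higher on spruce, aspen and wheat bran than in any day 9 library, and the cotton seed hull libraries stayed within the range of day 9. The log2 fold change was 1.11 ± 0.21 on wheat bran (adjusted p = 0.00115), 1.49 ± 0.20 on spruce (adjusted p = 9.96e-06) and 1.76 ± 0.21 on aspen (adjusted p = 1.89e-06). DICSQDRAFT_152560 had the largest decrease on wheat bran, to 9.93 and 8.84 RPKM on day 16, against 19.5 and 20.1 on day 9 (log2 fold change of -1.06 ± 0.16, adjusted p = 0.000254).

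On cotton seed hulls DICSQDRAFT_135743 fell to 1.99 and 2.32 RPKM on day 16, against 7.27 and 6.76 on day 9 (log2 fold change of -1.45 ± 0.21, adjusted p = 7.98e-05). DICSQDRAFT_173366 had 6.13 and 6.16 RPKM on day 16, against 3.59 and 5.30 on day 9 (log2 fold change of 0.72 ± 0.22, adjusted p = 0.0217). The call was lost in several alternatives. The log2 fold change was 0.47 with total reads as the scale (adjusted p = 0.114) and 0.42 without replicate 1 of day 9 (0.268). It stayed near 0.72 with DESeq2 (0.70, 0.0521) and without replicate 1 (0.67, 0.118) or replicate 2 (0.70, 0.0969) of day 16.

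**Figure D4:**
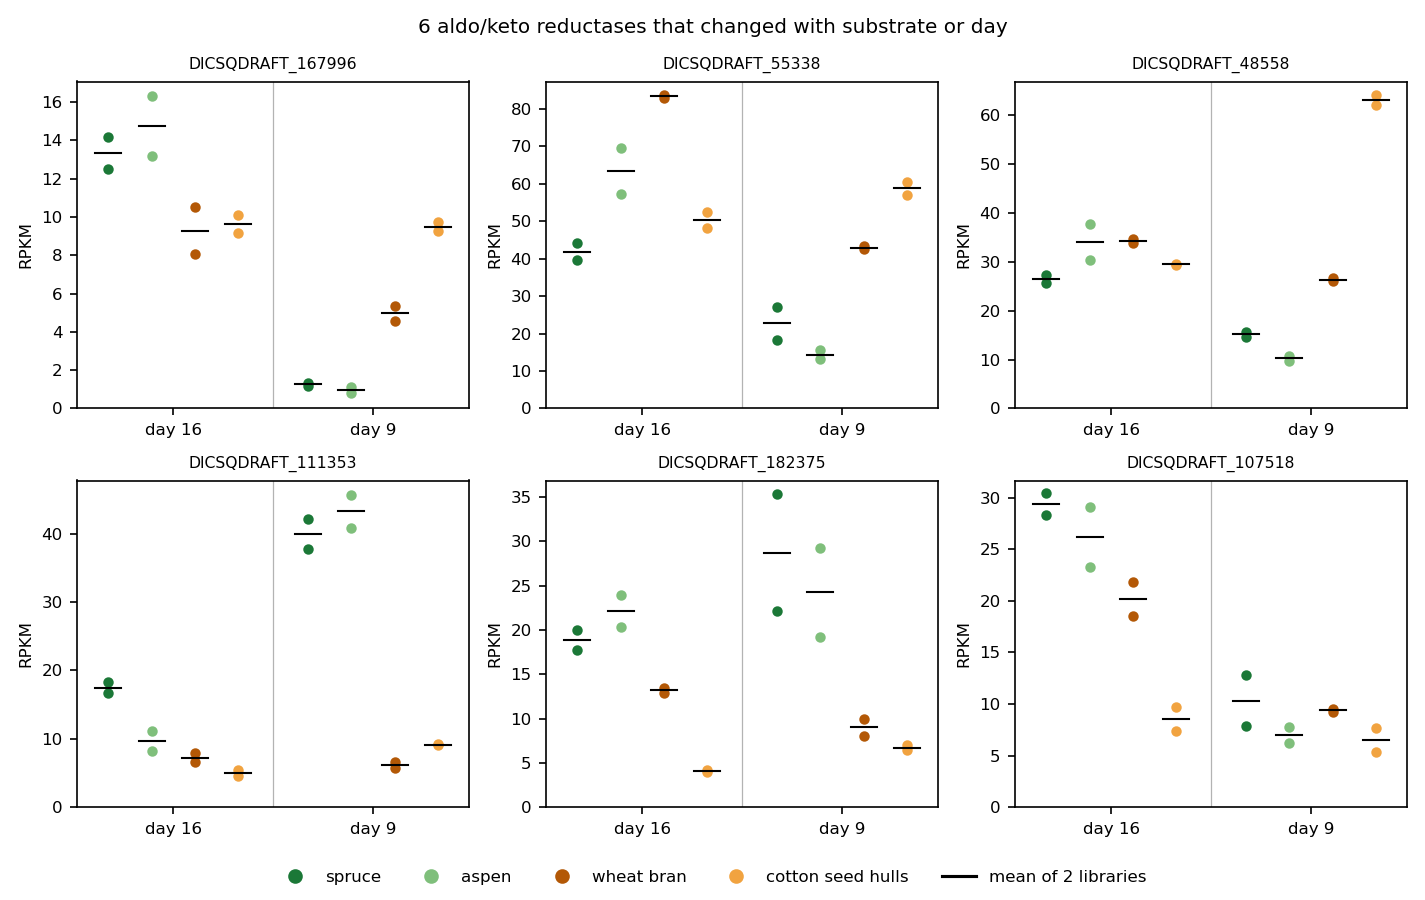
RPKM (y axis, linear from 0) of 6 aldo/keto reductases in each library (points), with the mean of the 2 libraries of a group (bars), day 16 left and day 9 right. DICSQDRAFT_167996 is near 1 RPKM on both woods on day 9 and above 12 on day 16, and DICSQDRAFT_111353 and DICSQDRAFT_182375 are higher on the woods than on the non-woody substrates on day 9.

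The day effects of wood and of non-woody substrates differed in 24 of 44 members (54.5%, beside 52.8% of all genes), 17 with a more positive effect on wood (38.6%, beside 25.1%) and 7 with a more negative one (15.9%, beside 27.7%). The median difference was 0.19 on the log2 scale, beside 0.01 for all genes. DICSQDRAFT_167996 and DICSQDRAFT_153362 were the extremes. DICSQDRAFT_94028, DICSQDRAFT_82508 and DICSQDRAFT_136695, called in opposite directions on the 2 days with TMM, differed by 1.17 ± 0.23 (adjusted p = 0.00108), 0.97 ± 0.12 (adjusted p = 2.64e-06) and -0.98 ± 0.12 (adjusted p = 4.86e-06).

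Spruce and aspen differed in their day effects in 8 of 44 (18.2%, beside 19.0% of all genes), 4 in each direction (beside 10.8% and 8.22%). With total reads 4 were more positive and 6 more negative on spruce, beside 812 and 1416 of all genes. With DESeq2's size factors they were 4 and 2, beside 1225 and 751. DICSQDRAFT_173366 had RPKM of 19.9 and 20.9 with spruce, 10.5 and 12.1 with aspen, 5.03 and 4.04 with wheat bran and 6.13 and 6.16 with cotton seed hulls on day 16. On day 9 DICSQDRAFT_173366 had 10.2 and 12 with spruce, 16.8 and 15.4 with aspen, 7.54 and 5.90 with wheat bran and 3.59 and 5.30 with cotton seed hulls. It was thus higher on day 16 on spruce and lower on day 16 on aspen, a difference of 1.51 ± 0.24 (adjusted p = 0.000378). DICSQDRAFT_107317 showed the same pair of directions, with a difference of 0.93 ± 0.13 (adjusted p = 9.53e-05). DICSQDRAFT_55338 rose more on aspen than on spruce, by -1.13 ± 0.23 as spruce minus aspen (adjusted p = 0.00281).

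Wheat bran and cotton seed hulls differed in their day effects in 3 of 44 (6.82%, beside 9.39% of all genes). Of these, 2 were more positive and 1 more negative on wheat bran (beside 4.29% and 5.1%). The counts became 6 and 1 with total reads as the scale, beside 1358 and 270 of all genes. A fit of the 8 wheat bran and cotton seed hull libraries alone called 15. The 3 were DICSQDRAFT_48558, DICSQDRAFT_55338 and DICSQDRAFT_173366. DICSQDRAFT_48558 had 33.8 and 34.7 RPKM on wheat bran and 29.4 and 29.6 on cotton seed hulls on day 16, and 26.6 and 26.0 on wheat bran and 64.2 and 62.2 on cotton seed hulls on day 9. It thus rose on wheat bran and fell on cotton seed hulls (1.24 ± 0.15, adjusted p = 5.47e-05). Without cotton seed hull replicate 2 of day 16, 1 of the 3 calls was left. Over all 13 contrasts 6 of the 44 genes never passed with TMM (13.6%), beside 6.74% of all genes.

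Genes with the same best KEGG match in the deposited annotation were set side by side, a grouping chosen after the values were seen. The 3 genes matched to Aspergillus fumigatus AFUA_1G07650, DICSQDRAFT_55338, DICSQDRAFT_82508 and DICSQDRAFT_167996, were all lower on wood on day 9 and all higher on day 16 than on day 9 on both woods, also with total reads as the scale. Their median log2 fold changes were -1.74 for wood on day 9, 0.87 between the days on spruce and 1.99 on aspen. Among all genes 34.2% were lower on wood on day 9, and 19.0% were higher on day 16 on both woods. DICSQDRAFT_167996 and DICSQDRAFT_55338 were already among the largest decreases of day 9 described above. DICSQDRAFT_82508 changed least. On day 16 DICSQDRAFT_82508 had 38.2 and 47.7 with spruce, 60.6 and 51.0 with aspen, 23.7 and 21.7 with wheat bran and 28.4 and 26.9 with cotton seed hulls, and on day 9 24.3 and 24.8 with spruce, 28.4 and 26.1 with aspen, 30.3 and 29.6 with wheat bran and 29.3 and 30.9 with cotton seed hulls. Its wood libraries of day 16 were above all other libraries (log2 fold change of 0.79 ± 0.12, adjusted p = 2.66e-05 on spruce; log2 fold change of 0.90 ± 0.11, adjusted p = 3.26e-06 on aspen). On day 16 the 3 genes parted, 1 being higher on wood, 1 lower and 1 not called.

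The 9 genes matched to AFUA_2G01410, of which 8 were tested, held no gene called lower on wood. On each day 5 of the 8 were higher, beside 29.7% of all genes on day 16 and 37.4% on day 9. The median log2 fold changes were 0.79 on day 16 and 0.91 on day 9. With total reads as the scale 6 were higher on day 16 and 5 on day 9, again with 0 lower. On that scale 7036 of all genes were higher and 1137 lower on day 16, and 5381 and 2455 on day 9. Most calls among all genes were thus also higher on that scale, 86.1% on day 16 and 68.7% on day 9. The same background stands beside the total-read counts of the other groups below. DICSQDRAFT_182375, DICSQDRAFT_173366, DICSQDRAFT_147951 and DICSQDRAFT_173360 were higher on both days, DICSQDRAFT_90341 on day 16 and DICSQDRAFT_181002 on day 9, while DICSQDRAFT_66468 and DICSQDRAFT_182836 passed on neither day. Of the 5 tested genes matched to AFUA_2G11250, 1 was higher and 0 lower on wood on day 16, and 1 was higher and 2 lower on day 9, or 4 and 0 on day 16 and 3 and 1 on day 9 with total reads. Of the 5 matched to AFUA_7G00700, 1 was higher and 2 lower on day 16 and 1 higher and 0 lower on day 9, but 3 were higher and 0 lower on each day with total reads. Of the 3 matched to AFUA_3G14270, 1 was higher and 1 lower on each day, or 1 and 1 on day 16 and 2 and 1 on day 9 with total reads. DICSQDRAFT_107317 and DICSQDRAFT_100261, the abundant genes higher on wood on both days, shared their best matches with no other member.

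**Figure D5:**
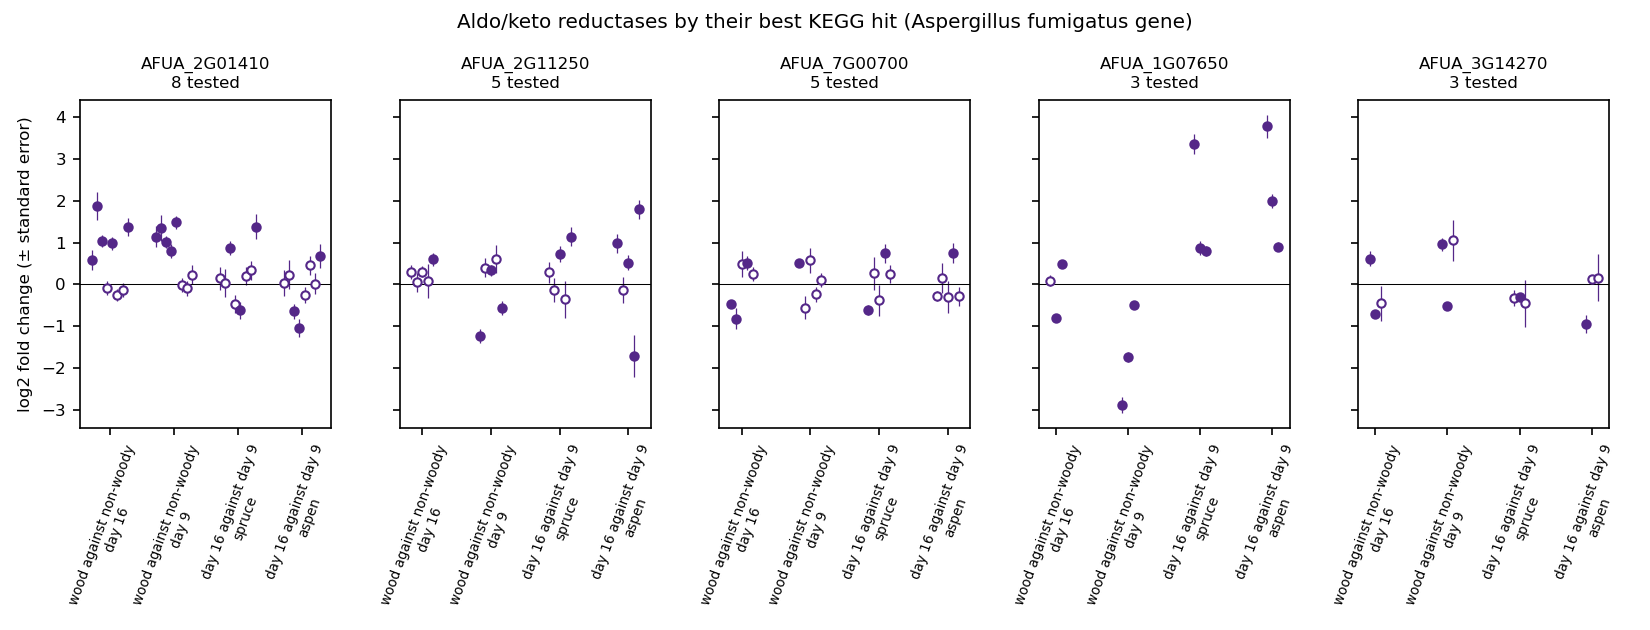
Log2 fold changes with standard errors for tested aldo/keto reductases that share a best KEGG match with at least 2 others (5 panels), for wood against non-woody substrates on day 16 and day 9 and for day 16 against day 9 on spruce and aspen; filled points passed the test. All 3 genes of the AFUA_1G07650 panel lie below 0 for wood on day 9 and above 0 for the day effects, and no gene of the AFUA_2G01410 panel was called lower on wood.

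In the order of the reference gene list 4 pairs of members were direct neighbours, and both genes of each pair had the same best KEGG match. Reads counted only when unique can be split or lost between near-identical copies, and sequence identity was not examined here, so differences within a pair are uncertain. DICSQDRAFT_167996 and DICSQDRAFT_82508 both rose on wood between the days, the first by 3.36 on spruce and 3.78 on aspen and the second by 0.79 and 0.90 on the log2 scale. DICSQDRAFT_173366 was higher on wood on both days (1.04 ± 0.14 on day 16 and 1.02 ± 0.14 on day 9). Its neighbour DICSQDRAFT_182836 had -0.26 ± 0.15 and -0.01 ± 0.17, and passed in none of the 13 contrasts with TMM. With total reads as the scale it passed as higher on day 16 on aspen (0.59, adjusted p = 0.0352). DICSQDRAFT_183625 was higher on wood on day 16 (0.50 ± 0.17) while its neighbour DICSQDRAFT_174599 was lower (-0.83 ± 0.25), a call that was lost with total reads as the scale (-0.35, adjusted p = 0.203). DICSQDRAFT_70905 and DICSQDRAFT_174626 passed in none of the contrasts with TMM. With total reads as the scale both were higher on wood on day 16, where their wood RPKM lay above the non-woody ones without overlap.

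Genes of the same protein fold or of neighbouring reactions give the surroundings of the family. Of 7 genes described by other aldo/keto reductase names, 5 were higher on wood on day 16 and 0 lower, and 4 were higher and 1 lower on day 9, with median log2 fold changes of 0.51 and 0.57. Beside them, 29.7% of all genes were higher and 30.0% lower on day 16, and 37.4% and 34.2% on day 9, with a median of 0.03 on each day. With total reads as the scale the counts of the 7 were 6 and 0 on day 16 and 5 and 0 on day 9. Of all genes that passed on that scale, 86.1% were higher on day 16 and 68.7% on day 9. The xylose reductase DICSQDRAFT_95722, which starts pentose catabolism, had mean RPKM of 418 ± 39.8 on spruce, 197 ± 5.74 on aspen, 173 ± 1.54 with wheat bran and 152 ± 4.21 with cotton seed hulls on day 16 (SD, n = 2 each). It was higher on wood on day 16 (log2 fold change of 0.34 ± 0.11, adjusted p = 0.0165) and on day 9 (log2 fold change of 0.57 ± 0.11, adjusted p = 0.000296), and higher on spruce than on aspen on day 16 (log2 fold change of 1.00 ± 0.16, adjusted p = 0.000405). The gene described as norsolorinic acid reductase, DICSQDRAFT_66487, had 455 ± 11.1 on spruce and 52.8 ± 26.8 on aspen on day 16, against 1.42 ± 0.441 with wheat bran and 1.11 ± 0.266 with cotton seed hulls. On day 9 DICSQDRAFT_66487 had 699 ± 46.6 and 716 ± 38.5 on the woods, against 3.19 ± 1.53 and 0.501 ± 0.414 on wheat bran and cotton seed hulls. Among the 44 tested members the largest log2 fold change between wood and non-woody substrates was 3.76, below that of this gene (log2 fold change of 6.45 ± 0.34, adjusted p = 1.15e-07 on day 16; log2 fold change of 8.83 ± 0.34, adjusted p = 4.73e-09 on day 9).

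Of the 3 pentose catabolism genes, xylose reductase was higher on wood and both xylitol dehydrogenases, which oxidise xylitol to xylulose, were lower on each day, although with total reads as the scale 2 of the 3 were higher and 1 lower on day 16, and 1 higher and 1 lower on day 9. DICSQDRAFT_86636 was the more abundant of the xylitol dehydrogenases (log2 fold change of -0.28 ± 0.07, adjusted p = 0.00231 on day 16; log2 fold change of -0.73 ± 0.07, adjusted p = 7.33e-08 on day 9), and its log2 fold change on day 16 was 0.20 (adjusted p = 0.0209) with total reads as the scale. The xylose reductase call of day 16 was lost without spruce replicate 1 (adjusted p = 0.0672) or aspen replicate 2 (0.0523) of that day, and the log2 fold change of this gene, DICSQDRAFT_95722, was 0.82 with total reads. Of 19 aldehyde dehydrogenases, which oxidise aldehydes to acids, 6 were higher and 6 lower on wood on day 16 and 7 and 9 on day 9. With total reads as the scale the counts were 13 and 3 on day 16 and 8 and 6 on day 9. All genes had 7036 higher and 1137 lower on day 16 on that scale, and 5381 and 2455 on day 9. On day 16, 8 of the 19 were lower on spruce than on aspen and 0 higher, beside 12% and 11.5% of all genes. On day 9, 2 were lower on spruce and 3 higher, beside 13.1% and 8.26% of all genes. The 2 most abundant, DICSQDRAFT_158024 and DICSQDRAFT_76415, a methylmalonate-semialdehyde dehydrogenase, were lower on wood on day 9 (log2 fold change of -1.85 ± 0.12, adjusted p = 1.43e-09; log2 fold change of -2.04 ± 0.07, adjusted p = 6.37e-14).

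The list of 45 alcohol dehydrogenases also took in genes described only as GroES-like protein. Of these 45, 21 were higher on wood and 4 lower on day 16, and 17 were higher and 9 lower on day 9. The median log2 fold changes were 0.48 and 0.23. With total reads as the scale the counts were 36 and 2 on day 16 and 20 and 6 on day 9. All genes had 7036 higher and 1137 lower on day 16 on that scale, and 5381 and 2455 on day 9. With TMM 29.7% of all genes were higher and 30.0% lower on day 16, and 37.4% and 34.2% on day 9. The most abundant, DICSQDRAFT_129544, was described only as a GroES-like protein. It was higher on wood on both days (log2 fold change of 0.33 ± 0.09, adjusted p = 0.0035 on day 16; log2 fold change of 1.26 ± 0.09, adjusted p = 1.04e-09 on day 9). DICSQDRAFT_59500 was also described only as a GroES-like protein. It had 37.1 ± 21.8 on spruce and 6.51 ± 1.25 on aspen on day 9, against 325 ± 31.7 with wheat bran and 266 ± 19.0 with cotton seed hulls. It was lower on wood on day 9 (log2 fold change of -4.52 ± 0.24, adjusted p = 5.02e-08) and did not pass on day 16 (log2 fold change of 0.21 ± 0.19, adjusted p = 0.385). The list of short-chain dehydrogenases/reductases, another family of NAD(P)-dependent oxidoreductases, also took in genes described only as NAD(P)-binding protein. Of its 124 tested genes, 50 were higher and 21 lower on wood on day 16, and 54 and 30 on day 9, with medians of 0.24 and 0.15. The 2 most abundant genes of this list, DICSQDRAFT_61726 (described only as NAD(P)-binding protein) and DICSQDRAFT_93500, were lower on wood on day 16 (log2 fold change of -0.41 ± 0.06, adjusted p = 3.26e-05; log2 fold change of -0.70 ± 0.06, adjusted p = 2.47e-08). Scaled by total reads these were 0.07 (adjusted p = 0.346) and -0.21, that of DICSQDRAFT_129544 was 0.82, and 89 of the 124 were higher and 10 lower on day 16 and 67 and 25 on day 9.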

How the data were processed

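Transcripts were measured by mRNA sequencing in 16 libraries, 8 groups of 2. The authors deposited, per the file headers, the count of unique reads for each gene model together with its RPKM, which scales this count to gene model length and library total. RPKM recomputed from counts, totals and lengths equalled the deposited RPKM. How the reads were aligned and counted, and on which build, is not given in the sources used here. Genes absent from a library were taken as 0 reads. Descriptions, KEGG matches and GO terms are the authors' annotation. All 49 locus tags matched the reference list, which was used for gene order alone.

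Read counts were tested with edgeR 4.0.16 in R 4.3.3 (limma 3.58.1). Genes were kept by filterByExpr with a minimum count of 10 and a minimum total of 15, which left 10584 of 11410. A robust quasi-likelihood fit with TMM scaling and 1 mean per group used all 16 libraries, with 8 residual degrees of freedom and a common biological coefficient of variation of 0.0982. The 13 contrasts were tested by two-sided F-tests with Benjamini-Hochberg adjustment. A standard error is the log2 fold change divided by the square root of F. The fit was tested on simulated data. Alternatives were scaling by total reads or by DESeq2's size factors, no filter, a minimum count of 50, the replicate number as a block, only the libraries of a contrast, each library left out in turn, and DESeq2 1.42.0. Tables and figures were made with Python 3.11.15, pandas 2.3.3 and matplotlib 3.10.9.

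The members and the comparison lists were chosen with earlier results of these data known. Named with values are the 8 genes of highest mean RPKM, direct neighbours, the 2 most abundant genes of each comparison list and, per contrast, the called genes with the largest log2 fold change in each direction at a mean of at least 5 RPKM on the higher side. These were 3 per direction for wood against non-woody substrates and 1 otherwise. Members called in opposite directions, the day effects of DICSQDRAFT_111353, the members listed without levels and the groups by KEGG match were chosen after the values were seen.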

Additional observations from a re-analysis of the deposited data

Results flagged for a closer look

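All results here are differences of day effects between substrates that passed edgeR's quasi-likelihood test of the difference itself, with Benjamini-Hochberg adjustment over all 10584 genes. They are on the log2 scale, and positive means that the effect of day 16 against day 9 was more positive on the substrate named first. Between wood and non-woody substrates, DICSQDRAFT_167996 differed by 2.98 ± 0.24 (adjusted p = 3.39e-08), with all 4 wood libraries of day 16 above all 4 of day 9. DICSQDRAFT_153362 differed by -2.98 ± 0.84 (adjusted p = 0.0161), and by -1.66 without replicate 1 of both woods of day 9. DICSQDRAFT_94028 (1.17) and DICSQDRAFT_82508 (0.97) were lower on wood on day 9 and higher on day 16, the first on day 9 with TMM but not with total reads (-0.29, adjusted p = 0.15). For DICSQDRAFT_94028 wheat bran on day 16 and cotton seed hulls on day 9 lay within the RPKM range of the woods. DICSQDRAFT_136695 (-0.98) was higher on wood on day 9, and its day 16 call depended on the scale.

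Between spruce and aspen, DICSQDRAFT_173366 differed by 1.51 ± 0.24 (adjusted p = 0.000378) and DICSQDRAFT_107317 by 0.93 ± 0.13 (adjusted p = 9.53e-05), each higher on day 16 on spruce and lower on aspen. DICSQDRAFT_55338 rose on both woods and less on spruce (-1.13 ± 0.23, adjusted p = 0.00281). Between wheat bran and cotton seed hulls, DICSQDRAFT_48558 differed by 1.24 ± 0.15 (adjusted p = 5.47e-05). DICSQDRAFT_173366 differed there by -1.27 ± 0.31 (adjusted p = 0.0148), a call lost without wheat bran replicate 1 of day 9 (0.079), cotton seed hull replicate 1 of day 9 (0.085), wheat bran replicate 2 of day 16 (0.0751), or cotton seed hull replicate 1 (0.0601) or 2 (0.0504) of day 16.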

How the results depend on the processing

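Counts of members called were within 1.5 times under each alternative that kept all libraries of a contrast, except as follows, and the cause was not tested. With total reads as the scale, 7 members passed between the days on cotton seed hulls (11 with TMM) and 7 for the difference of day effects between wheat bran and cotton seed hulls (3 with TMM). With DESeq2, 6 passed between spruce and aspen on day 9 (10 with edgeR) and 7 between the days on cotton seed hulls. A fit of the libraries of the contrast alone called 1 between spruce and aspen on day 9, 17 between the days on wheat bran (9 in the full fit), 5 for the difference of day effects between spruce and aspen (8) and 15 for that between wheat bran and cotton seed hulls. Among all genes, total reads gave 3510 between spruce and aspen on day 9 (2265 with TMM), 6473 between wheat bran and cotton seed hulls on day 16 (3320) and 1628 for the difference of their day effects (994). The libraries of the contrast alone gave 376 between spruce and aspen on day 9, 3190 between the days on wheat bran (1830), 967 for the spruce and aspen difference of day effects (2013) and 2274 for that of wheat bran and cotton seed hulls (994).

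Each library was left out in turn, a lone library being assumed to vary like the other groups. Members called, and all genes called, were 6 to 11 and 1306 to 2042 between spruce and aspen on day 16, 5 to 9 and 1290 to 2400 on day 9, 7 to 9 and 2108 to 2291 between wheat bran and cotton seed hulls on day 16, and 10 to 13 and 2239 to 2532 on day 9. They were 3 to 5 and 878 to 1132 between the days on wheat bran, 3 to 6 and 1798 to 2178 on cotton seed hulls, and 1 to 3 and 538 to 647 for the difference of these day effects. For wood against non-woody substrates 21 to 24 members passed on day 16 and 22 to 30 on day 9.

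With total reads as the scale the log2 fold change of wood on day 16 was 0.00 for DICSQDRAFT_136695, 0.20 for DICSQDRAFT_86636 and 0.07 for DICSQDRAFT_61726, each negative with TMM. Of 207 calls of a member in a contrast, that of DICSQDRAFT_136695 was the 1 that changed sign, to a value that rounds to 0.00. Other calls were lost without a change of sign, as given above. The replicate number as a block left 25 members for wood on day 16, 24 on day 9 and 13 between the days on wheat bran, and moved no count by over 1.5 times. The numbers were not taken to pair the samples. Over 28 pairs of groups the correlation of same-numbered deviations was -0.0576 to 0.358, over 0.1 in 1 pair. That pair was spruce and aspen on day 9, the groups whose replicates differed most. The main fit treated their libraries as independent, also in the wood contrasts that join them. The 5 genes that were not tested had too few reads to pass the filter on low counts.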
